A study of Homo sapiens with 12 samples.

Results

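The 3 libraries labelled GSI 48 h were compared with the 3 labelled GSI 12 h, 6 of the 12 libraries of a poly-A RNA sequencing series in CUTLL1. CUTLL1 is an established human T-cell acute lymphoblastic leukaemia (T-ALL) line in which a rearranged NOTCH1 gene signals without ligand. Per the labels and their protocols, cells of both groups had received 1 µM of the gamma-secretase inhibitor (GSI) Compound E and were harvested 12 or 48 h later. The other 6 libraries carry the solvent label DMSO at the same times, 3 libraries each, in the same line and medium. They serve below to ask whether a change differed between the treatment labels. They also entered the filter on low values and the estimate of spread behind each test. Libraries with the same replicate number were treated as pairs, and genes had to reach a normalised read count of 10 in 3 or more of the 12 libraries, which 19281 of 62069 did. Everything was measured in 1 cell line, and the labels do not say whether the numbered libraries came from separate cultures. The p-values therefore cover the spread of differences between paired libraries, which may be technical.

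Gamma-secretase cuts Notch receptors inside the membrane and frees their intracellular part, which binds the DNA-binding protein RBPJ and a Mastermind coactivator at target promoters. In T-ALL this complex drives the HES and HEY repressors, feedback genes such as NRARP and DTX1, and MYC, which in turn promotes ribosome production and metabolism. T-ALL lines are known to lose expression of these genes when the protease is inhibited.

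Depth was high in all 6 libraries, 75781643 to 101491147 recovered reads at 12 h and 73939612 to 133774239 at 48 h. All 16 T-cell marker genes were kept. Of 5 NK-cell markers 4 were kept, with the list summing to 467 to 621 at GSI 12 h and 573 to 618 at GSI 48 h. Among them NCR3 stood at 140 to 200 at GSI 12 h and 317 to 386 at GSI 48 h. KLRD1 stood at 259 to 390 and then 181 to 202. Of 8 myeloid markers 3 were kept, and 1 each of 6 erythroid and 6 stromal ones. Of 7 B-cell markers 1 was kept, CD79A, at 847 to 1088 in the GSI 12 h libraries and 846 to 932 in the GSI 48 h libraries, while MS4A1 and CD22 were at 0 in every library. Of 5 epithelial markers KRT8 and CDH1 were kept at low levels, with the list summing to 41.8 to 69.6 at GSI 12 h and 24.2 to 45.3 at GSI 48 h, and EPCAM and KRT19 were at 0 in every library.

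The Notch target NRARP averaged 42352 ± 6407 (SD, n = 3) in libraries labelled DMSO 12 h, 21929.5 ± 4507 at GSI 12 h, 3030.0 ± 627 at DMSO 48 h and 1701 ± 337 at GSI 48 h. At each time the GSI libraries were below the DMSO libraries, but NRARP was far lower in the DMSO 48 h libraries, labelled as free of inhibitor, than in the GSI 12 h libraries, labelled as treated. Over all kept genes the first principal component (41.2% of the variance) placed the DMSO libraries at 12.6 to 65.0 and the GSI libraries at −58.8 to 5.47, and the second (18.4%) placed the 12 h libraries at −46.6 to −8.86 and the 48 h libraries at 17.8 to 31.7. The libraries in doubt are those labelled GSI 12 h and DMSO 48 h. Were these labels exchanged, the changes below between the GSI labels would be between treatments at 48 h. Those between the DMSO labels would be between treatments at 12 h, and neither would be between times. That was not tested, so each direction below is one between libraries labelled so, and the comparison cannot be made without the GSI 12 h libraries.

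The HES repressors are the textbook RBPJ targets, and their promoters are shown because these genes belong to the list whose median moved most among the 35 described below. Each sequence is the 250 bases before the RefSeq transcription start on GRCh38.p14, written 5′ to 3′ on the gene's strand, with the RBPJ core TGGGAA, or its reverse complement TTCCCA, in capitals. HES1 lies at chr3:194135898-194136147 (plus strand), HES4 at chr1:1000098-1000347 (minus strand) and HES5 at chr1:2530264-2530513 (minus strand).
HES1: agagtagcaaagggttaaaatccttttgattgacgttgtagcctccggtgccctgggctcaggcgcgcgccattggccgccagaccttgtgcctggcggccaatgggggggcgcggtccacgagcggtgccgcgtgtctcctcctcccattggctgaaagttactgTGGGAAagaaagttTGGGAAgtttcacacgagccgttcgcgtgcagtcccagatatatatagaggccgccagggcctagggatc
HES4: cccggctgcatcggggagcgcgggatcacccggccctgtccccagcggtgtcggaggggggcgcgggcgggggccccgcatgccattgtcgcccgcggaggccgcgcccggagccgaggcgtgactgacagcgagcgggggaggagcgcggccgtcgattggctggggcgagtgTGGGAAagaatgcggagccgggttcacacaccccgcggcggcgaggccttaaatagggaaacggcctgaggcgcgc
HES5: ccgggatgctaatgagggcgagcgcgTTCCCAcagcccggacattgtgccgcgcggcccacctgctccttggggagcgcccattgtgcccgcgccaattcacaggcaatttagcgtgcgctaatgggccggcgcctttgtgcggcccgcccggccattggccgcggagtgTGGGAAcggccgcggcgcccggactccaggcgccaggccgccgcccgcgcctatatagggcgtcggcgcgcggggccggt
HES1 holds cores that begin 84 and 70 bases before the start, HES4 holds 1 at 76 bases and HES5 holds cores at 224 and 80 bases. Of the 13 NOTCH1 target genes with a promoter in the RefSeq table, 5 held the core on either strand (38.5%), against 21.1% of all 27305 promoters and 19.4% of the 11978 promoters of kept genes. The core also stood in 9 of 28 ribosome biogenesis promoters (32.1%). Such a match describes letters and is no evidence of binding.

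Between the GSI labels, 2435 of 19281 genes (12.6%) were higher at 48 h and 3109 (16.1%) were lower, 5544 in all (28.8%), in limma with the replicate pairs as a block and a Benjamini-Hochberg adjusted p under 0.05. The changes were mostly small, with a median size of 0.34 on the log2(value + 1) scale used throughout. At least 2-fold changes numbered 291 higher (1.51%) and 448 lower (2.32%). The median over all genes was −0.0014. Without the replicate block 312 were higher and 456 lower, and upper-quartile scaling gave 3079 higher and 2547 lower. Leaving out the pair numbered 1 lowered the count of calls from 5544 to 3497. The GSI libraries fitted alone, with the replicate block, gave 3778 calls, 1598 higher and 2180 lower.

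Among the 35 gene lists, those of NOTCH1 targets, protein synthesis, glycolysis, hypoxia and the ATF4 response moved downward, and those of FOXO targets (61.9%), fatty acid synthesis (53.8%), T-cell receptor signalling (53.6%) and T-lineage factors (51.9%) had the largest shares of members called higher, as the plot of list shares shows. Because RNA was taken from whole cultures, fewer cells of a type and less RNA per cell cannot be told apart.

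**Figure D1:**
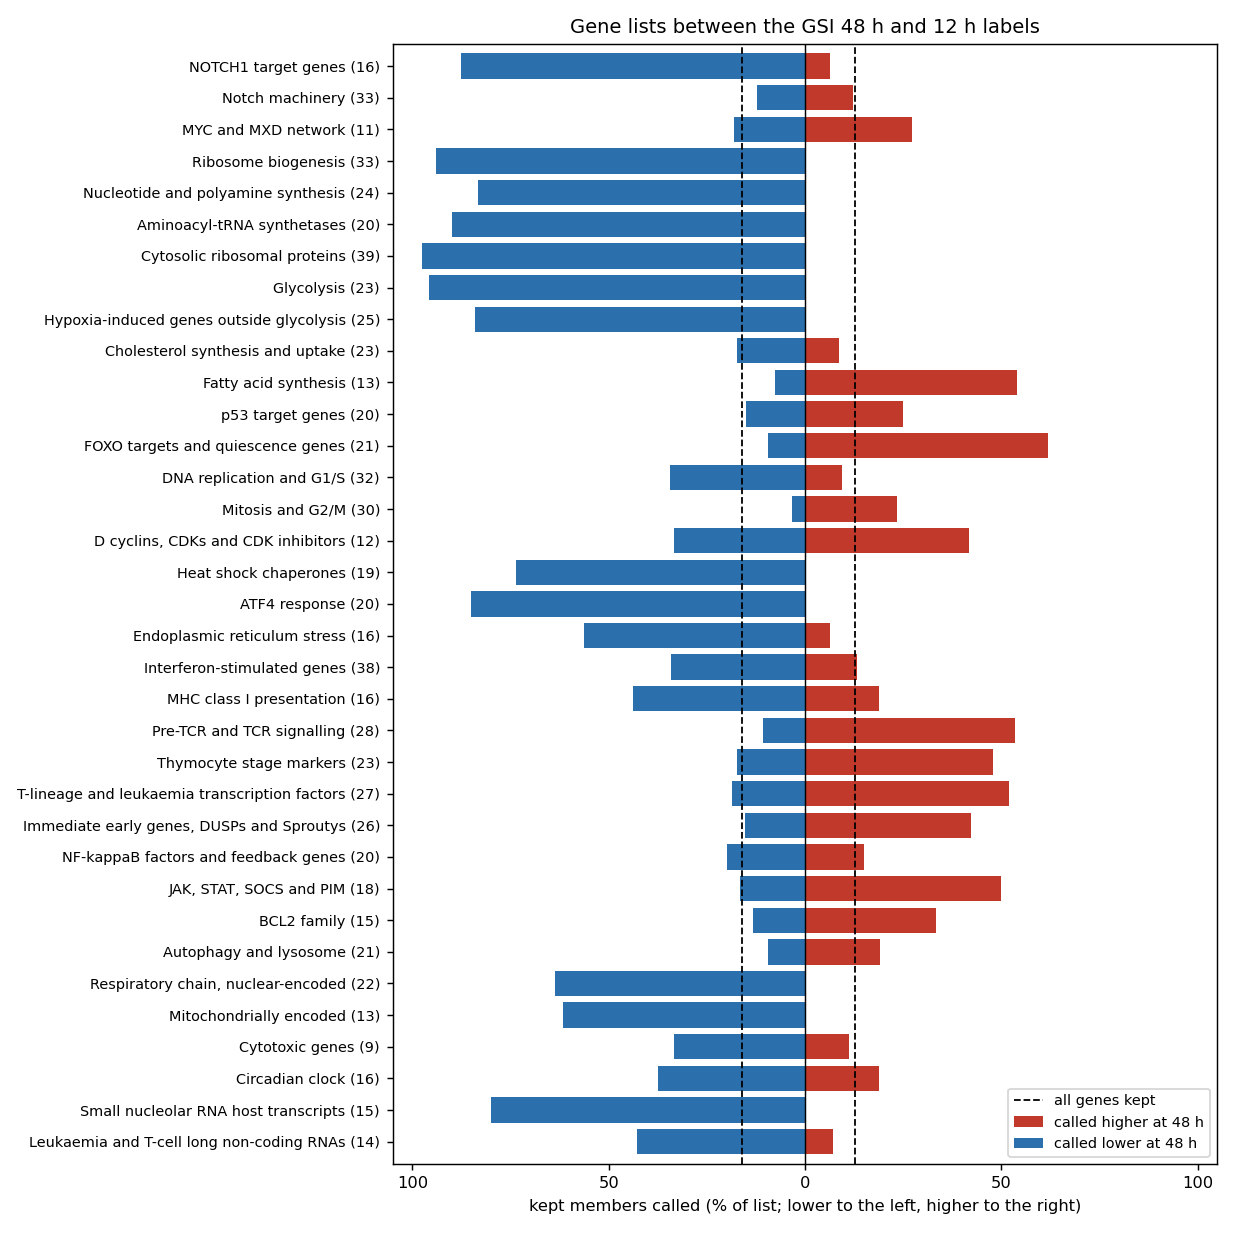
Share of the kept members of each gene list (number kept in brackets) called higher (red, right) or lower (blue, left) at the GSI 48 h label than at GSI 12 h, in percent. Dashed lines mark the shares over all 19281 genes, 12.6% higher and 16.1% lower. Bars for ribosome biogenesis (31 of 33), cytosolic ribosomal proteins (38 of 39) and glycolysis (22 of 23) reach furthest to the left.

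Of the 16 NOTCH1 target genes, 14 were lower and 1 was higher at 48 h, with a list median of −1.40 against −0.0014 over all genes. The median was −1.36, −1.40 and −1.47 in the pairs numbered 1, 2 and 3. Without the replicate block 12 were lower and 0 higher.

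NRARP (ENSG00000198435), a small ankyrin-repeat protein that limits Notch signalling, had 16831, 25383 and 23575 normalised reads in the GSI 12 h libraries numbered 1, 2 and 3 and 1995, 1776 and 1333 in the GSI 48 h libraries. All 48 h libraries lay far below the 12 h libraries, and the log2 fold change was −3.69 ± 0.16 SE (adjusted p = 7.35e-08). DTX1 (ENSG00000135144), a ubiquitin ligase that acts on Notch, stood at 48204, 70586 and 64303 and then 7426, 8123 and 9186, a log2 fold change of −2.87 ± 0.07 SE (adjusted p = 1.55e-09).

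The HES and HEY genes encode basic helix-loop-helix repressors, and 5 of the 6 were lower. HES4 (ENSG00000188290) had 21137, 22472 and 21037 at 12 h and 5496, 5295 and 4956 at 48 h (log2 fold change −2.04 ± 0.11 SE, adjusted p = 3.03e-07). HES5 (ENSG00000197921) had 468, 569 and 764, then 171, 139.5 and 168 (−1.89 ± 0.17 SE). HES1 (ENSG00000114315) had 4898, 3933 and 7116, then 2061, 2430.2 and 2576 (−1.14 ± 0.12 SE, adjusted p = 4.18e-05). The library numbered 3 was the highest of the HES1 values at 12 h, and the groups did not overlap for any of these 3 genes, as was so for 1911 of all genes (9.91%) in this direction and 1917 (9.94%) in the other. HEY1 (ENSG00000164683) fell steeply but from a low level, from 39.8, 116 and 113 to 2.55, 10.4 and 10.6 (−3.39 ± 0.22 SE). HEY2 had 14.6, 22.8 and 28.2, then 8.91, 8.91 and 5.32 (−1.37 ± 0.32 SE, adjusted p = 0.00838), a call lost without the replicate block. HEYL did not pass, at 17.5, 40.5 and 12.1 and 22.9, 16.3 and 18.6 (−0.10 ± 0.33 SE, adjusted p = 0.855), and its sign turned without the pair numbered 2.

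Receptors of the same list split. NOTCH3, a receptor that NOTCH1 itself induces, fell from 61132, 50455 and 70267 to 21766, 17268 and 30048 (log2 fold change −1.42 ± 0.08 SE, adjusted p = 4.19e-07). NOTCH1 was the only member that rose, from 112572, 122679 and 139943 to 139715, 155798 and 183726 (0.35 ± 0.04 SE, adjusted p = 6.48e-05). The NOTCH1 groups overlapped, since the 12 h library numbered 3 exceeded the 48 h library numbered 1, although each pair rose. PTCRA, the pre-T-cell receptor alpha chain, fell from 2489, 2576 and 2015 to 700.1, 846 and 728 (−1.63 ± 0.13 SE), and CR2, a complement receptor, from 33818, 26559.9 and 41701 to 11698, 7534 and 12773 (−1.69 ± 0.07 SE). IL7R, the interleukin-7 receptor, had 35223, 35472 and 45271 and 22088, 28777 and 24896 (−0.61 ± 0.08 SE), and IGF1R, the insulin-like growth factor receptor, fell less than most members (−0.61 ± 0.05 SE). SHQ1, an assembly factor for small nucleolar ribonucleoproteins, fell by 1.18 on the log2 scale.

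MYC, the growth-promoting transcription factor, had 16713, 17487 and 22427 normalised reads at 12 h and 8179.6, 10756 and 10346 at 48 h. Its 48 h libraries all lay below its 12 h libraries, with a log2 fold change of −0.95 ± 0.06 SE (adjusted p = 2.08e-06).

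**Figure D2:**
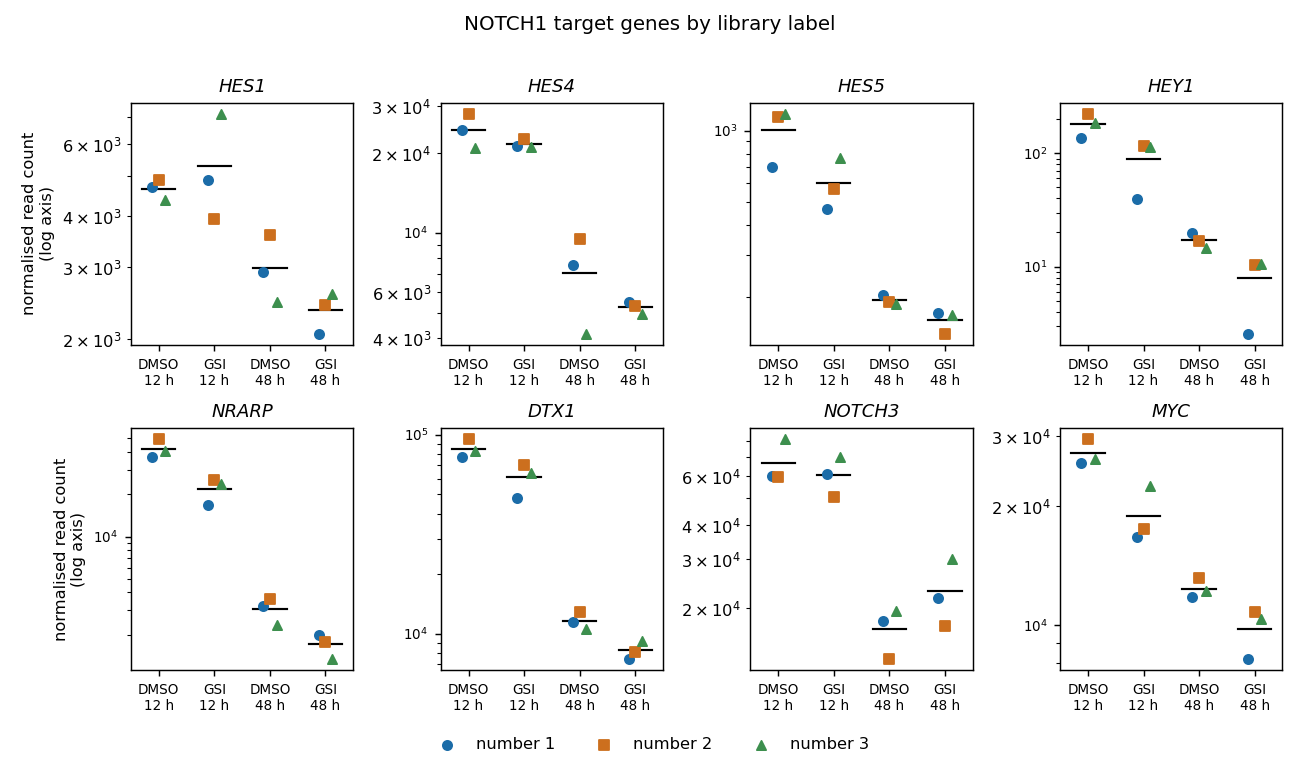
Normalised read counts (log axis) of 8 NOTCH1 target genes in the 12 libraries, by label; colour and shape give the replicate number and bars the group means. In each gene the 3 libraries labelled GSI 48 h lie below the 3 labelled GSI 12 h; NRARP falls from 21929.5 to 1701 between these group means.

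The fall of the targets was shared by the solvent labels. Between DMSO 48 h and 12 h, where 29.2% of genes were called, 13.9% higher and 15.2% lower, 13 of the 16 were lower and 0 higher, with a median of −1.72, and the DMSO changes were −3.82 for NRARP and −2.87 for DTX1. The difference of the 2 changes, GSI minus DMSO, uses no library on both sides and was called for 1177 genes (6.1%), 382 higher (1.98%) and 795 lower (4.12%). It was called for 3 targets only, NOTCH1 (0.36 ± 0.05 SE, adjusted p = 0.00367), NOTCH3 (0.57 ± 0.11 SE, adjusted p = 0.0139) and IL7R (−0.46 ± 0.12 SE, adjusted p = 0.0467). NOTCH1 had a DMSO change of −0.01 and IL7R one of −0.16, neither of them called. Without the replicate block limma called 0 differences (875 at an unadjusted p under 0.05), while edgeR with the block called 1206 and DESeq2 with the block 1321. Leaving out 1 pair also moved the count, to 752 without the GSI pair numbered 1 and to 543, 389 and 355 without the DMSO pairs numbered 1, 2 and 3.

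The rest of the Notch pathway moved little. Of 33 genes for ligands, receptors, proteases and nuclear partners, 4 were higher and 4 lower (1 and 1 without the block), shares near or below those of all genes. ADAM10, the metalloprotease that makes the first cut in Notch, rose from 17060.2, 18140.2 and 23172 to 23594, 29897 and 39050.4 (0.65 ± 0.06 SE). Of the related acetyltransferases, KAT2A fell (−0.45 ± 0.06 SE) and KAT2B rose (0.43 ± 0.06 SE).

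Genes for making ribosomes and proteins fell in nearly every case, by small amounts. Of 33 ribosome biogenesis genes 31 were lower and 0 higher (median −0.34), as were 38 and 0 of 39 cytosolic ribosomal proteins (median −0.34), 18 and 0 of 20 aminoacyl-tRNA synthetases (median −0.37) and 20 and 0 of 24 genes of nucleotide and polyamine synthesis (median −0.25). Without the replicate block the lower counts were 2, 13, 0 and 1, and without the GSI pair numbered 1 they were 20, 38, 14 and 13. Small nucleolar RNA host transcripts, which carry guide RNAs for ribosomal RNA in their introns, were lower in 12 of 15 (median −0.31) and in 0 without the block. Between the DMSO labels 38 of the 39 ribosomal proteins were lower (median −0.28), as were 12 of the 20 synthetases (median −0.23). So were 21 of the 24 nucleotide and polyamine genes, with 1 higher (median −0.37), and all 15 host transcripts (median −0.52).

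PES1, which is needed to process the large ribosomal subunit's RNA, had 7154, 9419 and 7182 at 12 h and 4609, 6267 and 5304 at 48 h (log2 fold change −0.55 ± 0.06 SE, adjusted p = 3.86e-05). NPM1, a nucleolar chaperone, fell from 113908, 134684 and 118845 to 75112, 100762 and 93755 (−0.45 ± 0.05 SE). In both genes each 48 h library lay below all of the 12 h libraries. RPS19, a small-subunit protein, fell from 57687, 63603 and 59414 to 37884, 44179.7 and 43511 (−0.53 ± 0.05 SE).

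Among the biosynthetic enzymes, IMPDH2, which commits purines to guanine nucleotides, fell from 27767, 26451 and 27454 to 16231, 17803 and 18474 (−0.64 ± 0.06 SE). PAICS, a purine synthesis enzyme, fell from 56623, 52130.3 and 47643 to 37447, 38198 and 34092 (−0.51 ± 0.04 SE). MTHFD2, a mitochondrial folate enzyme, showed a library effect as well, with 8860.0, 9832 and 33913 at 12 h and 5700.0, 7766 and 17007 at 48 h (−0.66 ± 0.09 SE). Both libraries numbered 3 were far above the others for MTHFD2, so the groups overlapped although each pair fell. The tRNA synthetases GARS1, IARS1 and YARS1 had the same layout, with YARS1 at 15889, 16413 and 36119 and 10314, 12526 and 21194 (−0.59 ± 0.07 SE).

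The E-box CACGTG is the core bound by MYC with its partner MAX. It stood in 2 of the 28 ribosome biogenesis promoters found (7.14%), against 8.57% of promoters of kept genes. The count covered the 250 bases before the start. The fall of ribosome biogenesis genes was shared with DMSO, where 31 of 33 were lower with a median of −0.56. The difference was called for 6 genes, all with the smaller fall under the GSI labels, among them WDR43, a processome subunit (−0.41 against −0.71 in DMSO, adjusted p = 0.0287). None of these 6 calls held without the block, and 0 or 1 gene of the list was called after leaving out 1 DMSO pair.

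The MYC and MXD network, which holds relatives and partners of MYC as well as antagonists, did not move as a group. Of its 11 genes 3 were higher and 2 lower (1 and 0 without the block). MXD4, a repressor that competes with MYC for MAX, rose from 2415, 2507 and 2815 to 5564, 3443 and 5238 (0.85 ± 0.10 SE), and more than under DMSO (difference 0.58 ± 0.15 SE, adjusted p = 0.0409). MXD3 rose by 0.46 and MXI1 changed by −0.28, a call lost without the GSI pair numbered 3 (adjusted p = 0.0591).

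Most glycolysis and hypoxia genes fell between the GSI labels, and for most members of each list the difference from the DMSO change was called lower. Of 23 glycolysis genes 22 were lower and 0 higher (median −0.55), against 9 lower and 2 higher in DMSO (median −0.13). The difference was called lower in 15 of the 23, against 4.12% of all genes. Of 25 hypoxia-induced genes outside glycolysis 21 were lower and 0 higher (median −0.57), against 2 lower and 6 higher in DMSO (median −0.02), with 14 differences called lower. Without the replicate block 5 glycolysis and 1 hypoxia gene were lower, and no difference was called. Without the DMSO pairs numbered 1, 2 and 3, differences were called lower in 10, 14 and 7 glycolysis genes and in 7, 6 and 4 hypoxia genes.

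LDHA, which turns pyruvate into lactate, had 208626, 129850.0 and 189059 at 12 h and 132048, 83434 and 104515 at 48 h (log2 fold change −0.72 ± 0.06 SE, adjusted p = 6.7e-06). The libraries numbered 2 were the lowest of each group, and the 12 h one lay below the 48 h library numbered 1. Under DMSO the LDHA change was −0.30, a difference of −0.42 ± 0.08 SE (adjusted p = 0.0135).

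PKM, the pyruvate kinase of proliferating cells, had 325336, 269456 and 287923 and 229268, 174175 and 202301 (−0.55 ± 0.05 SE), with no overlap, and a DMSO change of 0.04 (difference −0.58 ± 0.07 SE, adjusted p = 0.00104). ALDOA, an aldolase, fell by 0.55 and TPI1, the triose phosphate isomerase, by 0.60, each with a called difference. The lactate exporter SLC16A3 was the member that did not pass, at 2190.5, 758 and 1404 and 2536, 713 and 1056 (−0.10 ± 0.11 SE, adjusted p = 0.542).

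ADM (ENSG00000148926), which encodes the hypoxia-induced peptide adrenomedullin, had 3577, 925 and 2775 at 12 h and 920.3, 116 and 214 at 48 h (log2 fold change −2.88 ± 0.33 SE, adjusted p = 8.27e-05). It averaged 25.6 and 24.1 in DMSO, so that the GSI 48 h libraries still lay above every DMSO library. BHLHE40, a repressor of the clock and hypoxia programmes, had 10616, 1871 and 10266 and 5399.6, 472 and 3850.4 (−1.46 ± 0.14 SE; difference −1.07 ± 0.20 SE, adjusted p = 0.0113). In BHLHE40 the GSI libraries numbered 2 were by far the lowest of each group, and without that pair the change was −1.19 and still called.

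VEGFA, the vascular growth factor, fell under both labels. It had 20682, 12346 and 40139 and then 9950.2, 3125 and 11904 between the GSI labels (−1.60 ± 0.14 SE), and its DMSO change was −1.91. BNIP3, a mitophagy receptor, did not pass under GSI (11539, 2317 and 11408, then 10874, 2692 and 6655; −0.22 ± 0.14 SE, adjusted p = 0.289) and rose in DMSO from a mean of 421 to 1169, a difference of −1.66 ± 0.20 SE (adjusted p = 0.000978). NDRG1, a stress-induced growth regulator, behaved likewise, with 0.32 ± 0.12 SE under GSI (adjusted p = 0.0727) and 1.11 under DMSO. EGLN1, the oxygen sensor that marks HIF for destruction, fell from 10568, 5218 and 10151 to 7328, 3885 and 5946 (−0.57 ± 0.06 SE; difference −0.42 ± 0.09 SE).

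**Figure D3:**
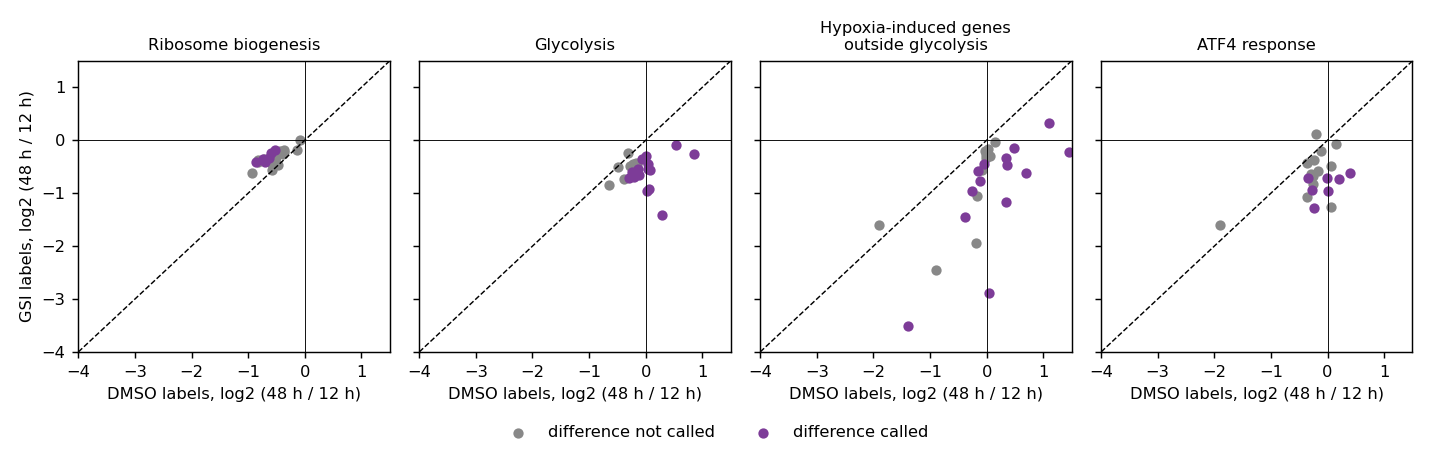
Log2 change from 12 h to 48 h between the GSI labels (vertical axis) against that between the DMSO labels (horizontal axis) for the kept members of 4 gene lists; purple points had a called difference, and the dashed line marks equal changes. Glycolysis, hypoxia and ATF4 members lie mostly below the line (15, 14 and 7 differences called lower), whereas ribosome biogenesis members lie near or above it.

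Genes of the ATF4 response, which supplies amino acids under stress, were lower in 17 of 20 and higher in 0 (median −0.69), against 4 lower and 1 higher in DMSO. The difference was called lower in 7 of the 20. Without the replicate block 0 of the 20 passed, and differences were called in 3, 1 and 2 without the DMSO pairs numbered 1, 2 and 3 and in 4 without the GSI pair numbered 1. SLC7A5, a transporter of large neutral amino acids, had 22078, 22274 and 84168 at 12 h and 12439, 15828 and 47014 at 48 h (log2 fold change −0.72 ± 0.06 SE, adjusted p = 1.34e-05). CEBPB, a transcription factor that ATF4 induces, had 1480.1, 1489 and 4678 and 794, 971 and 1861 (−0.95 ± 0.11 SE; difference −0.67 ± 0.16 SE, adjusted p = 0.0304).

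The libraries numbered 3 stood above the others at both times in these genes, SLC7A5 by more than any change between the labels. Each pair fell, and without the GSI pair numbered 3 the count was still 17 lower, with 1 higher, while the list median went from −0.69 to −0.44. The median was −0.53, −0.37 and −1.02 in the pairs numbered 1, 2 and 3. ATF4 itself went from 43307, 45118 and 78179 to 32483, 38129 and 57164 (−0.37 ± 0.05 SE).

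**Figure D4:**
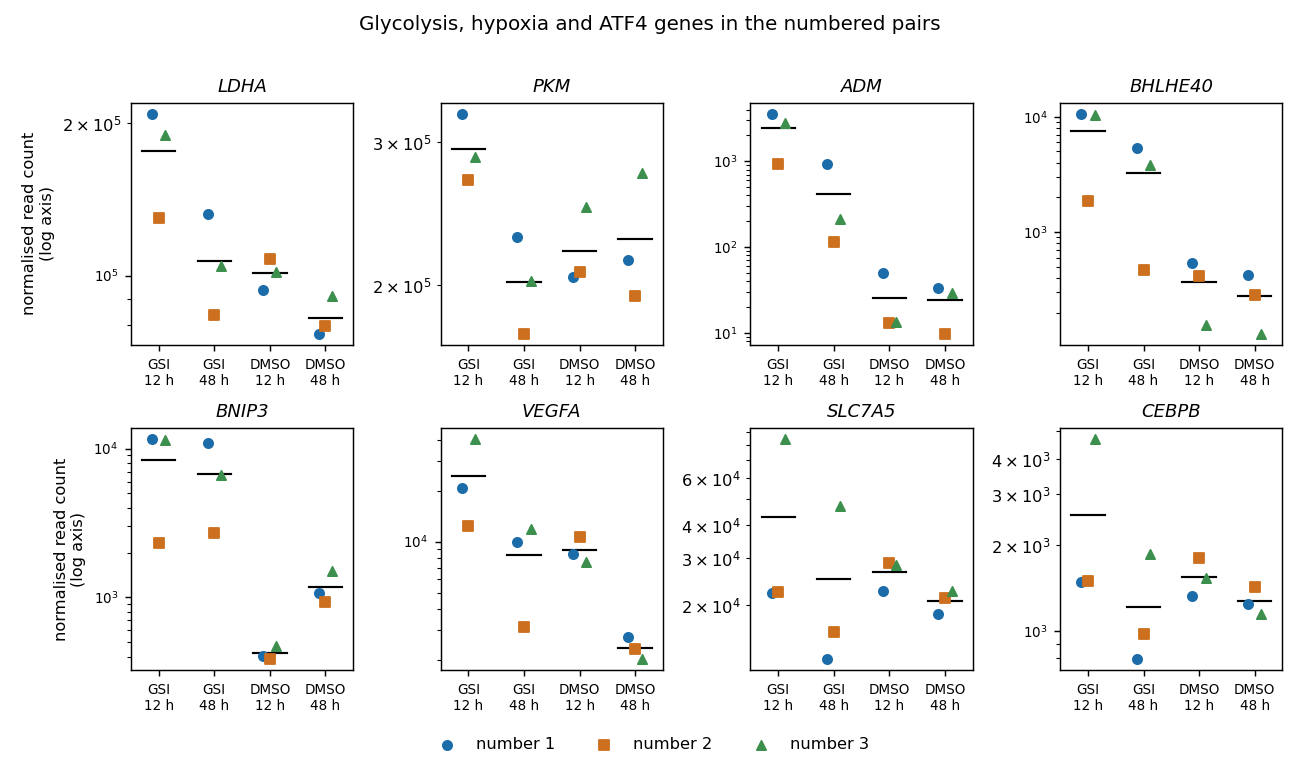
Normalised read counts (log axis) of glycolysis (LDHA, PKM), hypoxia (ADM, BHLHE40, BNIP3, VEGFA) and ATF4 response (VEGFA, SLC7A5, CEBPB) genes in the 12 libraries, by label; colour and shape give the replicate number and bars the group means. GSI libraries numbered 2 are low in the hypoxia genes and those numbered 3 high in SLC7A5 (84168 at 12 h).

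Chaperones fell as well. Of 19 heat shock chaperones 14 were lower and 0 higher (median −0.31), 1 without the block, and of 16 endoplasmic reticulum stress genes 9 were lower and 1 higher, 0 without the block and 5 lower without the GSI pair numbered 1. HSP90AB1, a cytosolic chaperone, fell from 156142, 187357 and 146921 to 98037, 133568 and 101559 (−0.56 ± 0.05 SE), much as in DMSO (−0.52). HSPA5, the main chaperone of the endoplasmic reticulum, had 23594, 40989 and 20366 and 20021, 28752 and 14883 (−0.40 ± 0.05 SE) and rose in DMSO (0.15), a difference of −0.55 ± 0.07 SE (adjusted p = 0.00164). HSP90B1 and CALR, both chaperones of that compartment, differed in the same way, by −0.41 and −0.35. XBP1, a transcription factor of this stress response, was the 1 rise (0.36 ± 0.07 SE).

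Respiratory chain genes were lower in 14 of 22 nuclear-encoded (median −0.21) and 8 of 13 mitochondrially encoded cases (median −0.17), with none higher. Without the block 1 and 0 passed, and without the GSI pair numbered 1 they numbered 7 and 5. UQCRC1, a core subunit of complex III, fell by 0.36 on the log2 scale, and MT-CO2, a subunit of cytochrome oxidase, from 527045, 643226 and 517456 to 438694, 538115 and 449345 (−0.24 ± 0.04 SE), both by more than under DMSO (differences of −0.27 and −0.25).

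T-cell receptor signalling genes rose more often than they fell. Of 28 genes 15 were higher and 3 lower (median 0.21), 8 and 1 without the block. In DMSO 17 were higher and 4 lower (median 0.35). RASGRP1, which activates Ras downstream of the receptor, had 4088, 3032 and 4746 at 12 h and 13397, 12896 and 16717 at 48 h (log2 fold change 1.87 ± 0.11 SE, adjusted p = 4.71e-07). Every 48 h library exceeded every 12 h library by more than 2-fold, and the rise was larger than under DMSO (1.29; difference 0.58 ± 0.15 SE, adjusted p = 0.0468). SLA, an adaptor that dampens receptor signalling, rose from 24839, 26204 and 24998 to 44425, 46905 and 49674 (0.89 ± 0.07 SE), and GRAP2, an adaptor for LCP2, from 10029, 9465 and 9084 to 17896, 16369 and 17702 (0.86 ± 0.06 SE). ZAP70, the kinase bound to the receptor's zeta chain, went the other way, from 118351, 98687 and 118201 to 73812, 64411 and 71078 (−0.68 ± 0.05 SE, adjusted p = 3.2e-06).

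Thymocyte stage markers were higher in 11 of 23 and lower in 4, 4 and 1 without the block, against 7 and 6 in DMSO. RAG1 (ENSG00000166349), the recombinase that cuts antigen receptor genes, had 2943, 2699 and 3142 at 12 h and 7527, 7141 and 9128 at 48 h (log2 fold change 1.43 ± 0.07 SE, adjusted p = 2.94e-07). Its DMSO change was −0.02 and not called, which gave a difference of 1.46 ± 0.10 SE (adjusted p = 6.69e-05). CCR9, a receptor for the thymic chemokine CCL25, rose from 11816, 14998 and 21229 to 38831, 40286 and 58458 (1.53 ± 0.10 SE; difference 0.74 ± 0.14 SE, adjusted p = 0.0111). ITGAE, the alpha E integrin chain, fell from 14149.6, 11553 and 12548 to 8429, 6260.4 and 6367 (−0.87 ± 0.05 SE). CD1A, a marker of cortical thymocytes, did not pass (0.14 ± 0.05 SE, adjusted p = 0.0735).

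The T-lineage and leukaemia transcription factors were higher in 14 of 27 and lower in 5, 7 and 3 without the block, against 12 and 4 in DMSO. GATA3, which T cells need throughout development, rose from 10148, 9636 and 9623 to 22359.5, 20626 and 23653 (1.18 ± 0.06 SE; difference 0.41 ± 0.09 SE, adjusted p = 0.0217). IKZF3, an Ikaros family factor, rose from 3765, 2426 and 3730.1 to 6298, 5661 and 7348 (0.98 ± 0.09 SE). RUNX3 fell from 13992, 12128 and 11456 to 6375, 4496 and 5049 (−1.25 ± 0.06 SE; difference −0.44 ± 0.09 SE). ID1, an inhibitor of E-protein transcription factors, had 1001, 2154 and 1026 and 188, 304 and 137 (−2.71 ± 0.12 SE, adjusted p = 1e-07), and it too fell more than under DMSO (−1.65).

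**Figure D5:**
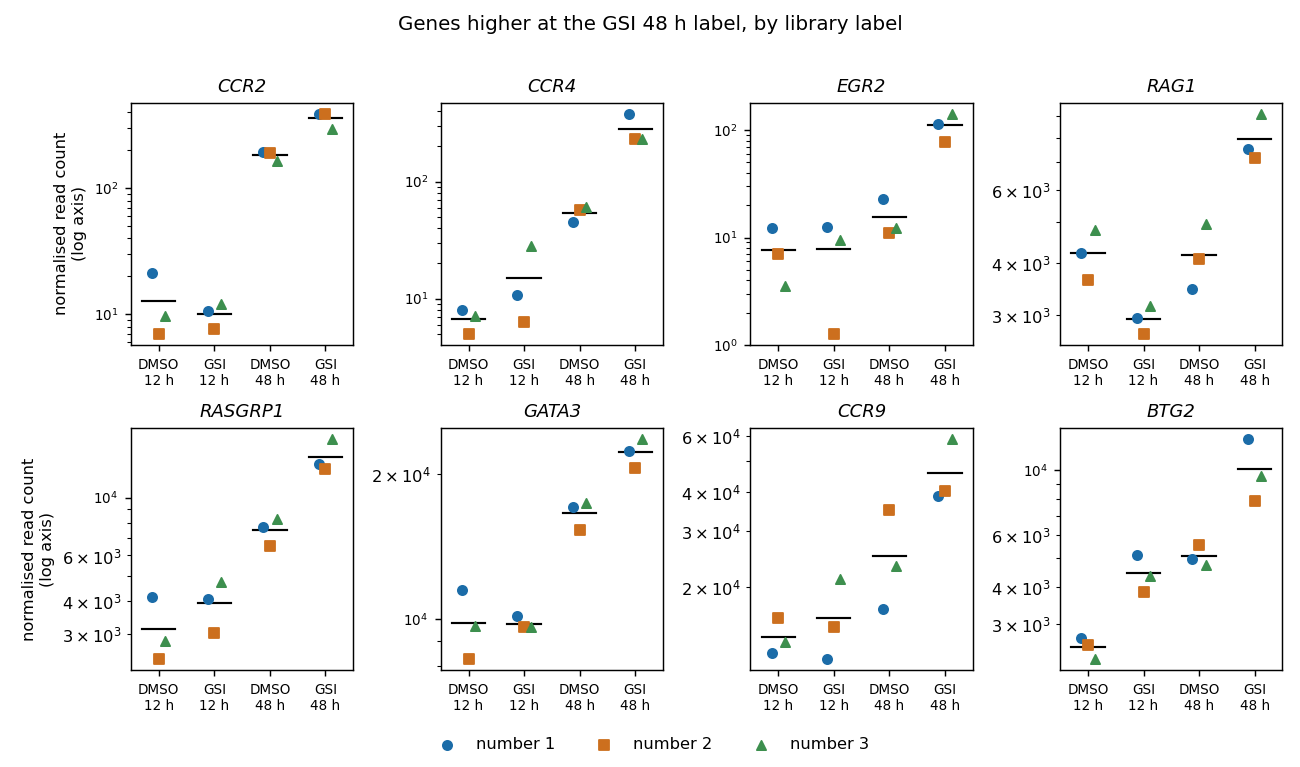
Normalised read counts (log axis) of 8 genes that were higher at GSI 48 h, in the 12 libraries by label; colour and shape give the replicate number and bars the group means. The 3 libraries labelled GSI 48 h lie above the 3 labelled GSI 12 h in each gene; RAG1 goes from 2928 to 7932 between the GSI group means and from 4222 to 4171 between the DMSO ones.

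Of 26 immediate early genes, DUSP phosphatases and Sproutys 11 were higher and 4 lower (4 and 1 without the block), against 10 and 4 in DMSO. EGR2 (ENSG00000122877), a zinc finger factor induced by receptor signalling, rose from 12.6, 1.27 and 9.4 to 113, 77.9 and 142 (3.99 ± 0.37 SE, adjusted p = 2.09e-05) and did not pass in DMSO (1.00), a difference of 2.99 ± 0.52 SE (adjusted p = 0.00831). Its relative EGR1 had 2806, 492 and 929 and 7869, 2821 and 3906 (2.02 ± 0.21 SE), so that the groups barely separated. FOSL2, an AP-1 subunit, fell from 3662, 1601 and 3418 to 1302, 570.1 and 815 (−1.68 ± 0.12 SE) and SPRY1, a brake on Ras signalling, from 664, 305 and 552 to 328, 143 and 215 (−1.15 ± 0.10 SE).

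FOXO targets and quiescence genes were higher in 13 of 21 and lower in 2 (median 0.31), 4 and 0 without the block, against 11 and 1 in DMSO (median 0.41). BTG2, an antiproliferative factor, rose from 5134, 3850.5 and 4373 to 12745, 7843 and 9572 (1.16 ± 0.06 SE, adjusted p = 3.15e-07), much as in DMSO (1.03). CCR7, a homing receptor of lymphocytes, and CCNG2, a cyclin of arrested cells, rose by 0.82 and 0.78, with no called difference from DMSO.

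Cell cycle genes moved in both directions. CCND1, a D-type cyclin, fell from 225, 226 and 277 to 57.3, 52.7 and 34.6 (−2.34 ± 0.17 SE, adjusted p = 2.94e-06), and the CDK inhibitors CDKN2D and CDKN2C rose by 0.74 and 0.48. In the list of D cyclins, CDKs and CDK inhibitors 5 of 12 were higher and 4 lower (2 and 1 without the block). Of 32 DNA replication genes 11 were lower and 3 higher, against 0 and 2 without the block and 5 and 3 without the GSI pair numbered 1, with GINS2, a helicase subunit, at −0.33 and E2F2, a replication-promoting factor, at 0.36. Of 30 mitosis genes 7 were higher and 1 lower (0 and 0 without the block), against 24 and 1 in DMSO. The mitosis median was 0.06 under GSI, with its sign changed under 2 alternatives, and 0.19 in DMSO. TOP2A, the mitotic topoisomerase, rose from 143544, 170630.1 and 126448 to 167172, 224266 and 157194 (0.31 ± 0.05 SE), while CDC25B, a phosphatase that starts mitosis, fell (−0.24 ± 0.04 SE).

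Interferon-stimulated genes were lower in 13 of 38 and higher in 5 (median −0.17, and −0.10 and −0.07 without the GSI pairs numbered 2 and 3), whereas in DMSO 16 were higher and 2 lower. The difference was called lower in 9. Without the block 0 were lower and 1 higher, and without the DMSO pairs numbered 2 and 3 differences were called in 3 and 2. IFIT3, an antiviral protein, had 257, 351 and 172 at 12 h and 172, 203 and 95.8 at 48 h (−0.73 ± 0.10 SE) and rose in DMSO (0.32), a difference of −1.05 ± 0.14 SE (adjusted p = 0.00168). GBP2, an interferon-induced GTPase, showed the same contrast, from 470.4, 788 and 559 to 216, 125 and 164 (−1.84 ± 0.22 SE) against 1.02 in DMSO. MHC class I genes were lower in 7 of 16 and higher in 3, but 0 passed without the block.

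Cytotoxic genes also parted from DMSO. Of 9 kept 3 were lower and 1 higher, against 6 higher and 0 lower in DMSO, and 5 differences were called lower, 2 without the DMSO pair numbered 2 or 3. GZMA, a granule protease, had 23.3, 49.3 and 25.5 and 5.09, 7.42 and 6.65 (−2.12 ± 0.23 SE), while the DMSO mean rose from 55.0 to 155 (difference −3.59 ± 0.32 SE, adjusted p = 0.000256). FASLG, the death receptor ligand, fell from 42.8, 83.5 and 53.7 to 20.4, 32.7 and 16.0 (−1.35 ± 0.20 SE; difference −1.40 ± 0.29 SE). KLRB1, a lectin-like receptor of natural killer and T cells, was the rise, from 217, 110.1 and 239 to 516, 326 and 525 (1.31 ± 0.15 SE).

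Of 15 BCL2 family genes 5 were higher and 2 lower (1 and 0 without the block). BIK, which promotes cell death, rose from 242, 229 and 259 to 426, 488 and 484 (0.93 ± 0.09 SE; difference 0.59 ± 0.13 SE), and PMAIP1, the death promoter NOXA, fell from 19240.0, 19217 and 32676 to 13419, 15917 and 18029.6 (−0.55 ± 0.08 SE). The survival genes MCL1 and BCL2L1 rose by 0.24 and 0.30. In the list of JAK, STAT, SOCS and PIM genes 9 of 18 were higher and 3 lower (1 and 0 without the block), with SOCS1, a cytokine feedback inhibitor, from 1777, 2536 and 1527 to 3609, 4255 and 3245 (0.95 ± 0.08 SE). Of 13 fatty acid synthesis genes 7 were higher and 1 lower (0 and 0 without the block), led by the fatty acid ligase ACSL1 and the regulator SREBF1 at 0.81 and 0.29. The lists for cholesterol (2 of 23 higher, 4 lower), p53 targets (5 of 20 and 3), NF-kappaB (3 of 20 and 4), autophagy and lysosome (4 of 21 and 2) and the circadian clock (3 of 16 and 6) had mixed calls, with at most 2 genes of each called without the block, and the medians of the cholesterol, p53, NF-kappaB and clock lists changed sign under at least 1 alternative.

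Several of the largest rises by the naming rule began from low levels. CCR2 (ENSG00000121807), a receptor for the chemokine CCL2, went from 10.7, 7.59 and 12.1 to 391, 387 and 298, a log2 fold change of 5.03 ± 0.26 SE (adjusted p = 3.03e-07) that was also large in DMSO (3.88). CCR4 (ENSG00000183813), a receptor for CCL17 and CCL22, went from 10.7, 6.33 and 28.2 to 381, 232 and 233 (4.34 ± 0.35 SE, and 5.01 without the pair numbered 3). Neither difference from DMSO was called (adjusted p = 0.0961 and 0.108). KRT1, a keratin, rose from 192, 86.0 and 253 to 2390.5, 1551 and 1886 (3.56 ± 0.24 SE) and SOX5, an SRY-related transcription factor, from 305, 299 and 352 to 1358, 1653 and 1825 (2.33 ± 0.15 SE), both by more than in DMSO (1.54 and 0.80). PTGDR2, a prostaglandin D2 receptor, reached the highest level of this group, 634, 442 and 707 at 12 h and 3420.2, 2623 and 4127 at 48 h (2.51 ± 0.16 SE). The others were the T-cell receptor segments TRAV8-2 (3.14) and TRAV13-1 (3.04), the non-coding LINC00887 (2.80), the pseudogene HSPA8P20 (2.52), the pseudokinase TRIB1 (2.34) and the envoplakin gene EVPL (2.26). Reads of segments and pseudogenes may be shared with near-identical copies, so their values are uncertain.

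Among the largest falls, TBX18 (ENSG00000112837), a T-box transcription factor, went from 399, 454 and 805 to 19.1, 23.0 and 30.6 (log2 fold change −4.41 ± 0.12 SE, adjusted p = 2.74e-09). Its DMSO change was −1.31, a difference of −3.10 ± 0.17 SE (adjusted p = 4.48e-06). ALDH3B2, an aldehyde dehydrogenase, went from 488, 626 and 416 to 7.64, 17.8 and 6.65 (−5.55 ± 0.25 SE), and EXD3, which holds an exonuclease domain, from 3966, 5754 and 5849.7 to 243, 256 and 242 (−4.37 ± 0.16 SE). Both also fell in DMSO (−4.32 and −4.88), with no called difference. RGS6, a regulator of G-protein signalling, fell from 293, 211 and 291 to 11.5, 2.97 and 9.31 (−5.04 ± 0.22 SE), IL18R1, the interleukin-18 receptor, from 168, 199 and 187 to 12.7, 16.3 and 16.0 (−3.54 ± 0.17 SE) and TMEM158, a membrane protein induced by Ras, from 377, 673 and 279 to 34.4, 53.4 and 22.6 (−3.54 ± 0.10 SE). These 3 fell further than in DMSO, with differences of −2.58, −2.16 and −2.00. DPP6, an accessory subunit of potassium channels, changed by −3.71 and CPA4, a carboxypeptidase, by −3.63. NRARP, the immunoglobulin segments IGHV3-38 (−4.05) and IGHV1-24 (−3.88) and the pseudogene HOMER2P2 (−3.81) completed the 12. DMBT1, a scavenger receptor, fell from 958, 887 and 2343 to 129, 111 and 201 (−3.14 ± 0.12 SE) and did not pass in DMSO (0.34).

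Of 2984 long non-coding RNAs 244 were higher (8.18%) and 223 lower (7.47%), at a median level of 46.3 against 2535 for protein-coding genes, of which 14.4% were higher and 19.9% lower. Of 14 T-cell and leukaemia long non-coding RNAs 6 were lower and 1 higher, 5 and 0 without the block. MIR155HG, the host transcript of miR-155, fell from 733, 487 and 835 to 398, 315 and 440.2 (−0.81 ± 0.08 SE; difference −0.55 ± 0.11 SE). LINC00963 fell from 372, 334 and 489 to 196, 199 and 202 (−0.98 ± 0.11 SE) and rose in DMSO (0.47). NALT1, transcribed next to NOTCH1, fell from 1171, 824 and 897 to 601, 398 and 559 (−0.90 ± 0.11 SE), opposite to NOTCH1. GAS5, a host of small nucleolar RNAs, fell from 13849, 13498 and 16949.9 to 10349, 10437 and 12535 (−0.41 ± 0.04 SE). By the rule for this class, LINC00892 (1.39), LINC01801 (1.25) and LINC00632 (1.21) rose with LINC00887, and LINC01120 (−3.06), LINC02763 (−2.49), CHRM3-AS2 (−2.45) and UST-AS2 (−2.43) fell. Whether reads were counted by strand is not given in the sources used here, so values of NALT1 and the antisense genes may hold reads of their neighbours.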

How the data were processed

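Poly-A RNA was sequenced in 12 CUTLL1 libraries. Per the labels' protocols, total RNA was extracted with on-column DNase treatment. The submitters' processing notes name TopHat2 2.0.10, HTSeq 0.6.1, FastQC 0.10.1, DESeq2 without a version, and the build hg19. Roles of these tools, the annotation and use of strand are, for their part, not given in the sources used here. Each value the authors deposited is a signal, the read count of a gene in a library scaled by a size factor. Within each library they were whole multiples of the value of 1 read, so reads could be recovered (100% whole within 0.01), 73939612 to 160702764 per library.

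Genes that reached 10 in 3 or more libraries were tested with limma 3.58.1 in R 4.3.3 (trended prior, log2(value + 1), which understates changes of low genes), fitted to all 12 libraries with a block for each numbered pair within a treatment label and a time effect for each label. P-values were adjusted over all 19281 genes, with calls under 0.05, and SE is the moderated standard error. Same-numbered libraries deviated together (correlation of deviations 0.40, 0.54 and 0.47 for GSI and 0.58, 0.61 and 0.54 for DMSO). All other numbers gave correlations between −0.38 and −0.10. Deviations were taken from each group's own mean, so positive same-number correlations force negative ones among the rest. The pairing comes from the replicate numbers in the titles. On simulated reads over 19072 genes for the GSI comparison, the test recovered 71.6%, 78.8% and 95.4% of genes changed 1.5-, 2- and 4-fold. There were 14 calls among unchanged genes. The simulated reads had the pairing built in, so these rates cannot say whether the pairing is right. Alternatives were other blocks, pseudocounts, filters and scalings, edgeR 4.0.16 and DESeq2 1.42.0 on recovered reads, and leaving out each pair or library.

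The libraries compared and the 35 gene lists were chosen with earlier results of these data known. Named genes were the 12 largest rises and falls, called, with the higher group averaging 100 or more and 1 direction in all 3 pairs. They also included 6 each for the difference from DMSO, every NOTCH1 target, up to 4 called and 2 uncalled members of each list, and 4 long non-coding RNAs each way with a mean of at least 50. Some genes that this rule took are not reported here. Symbols came from an identifier table (16495 of 19281 kept) and biotypes from GENCODE 29 (18344). Gene coordinates on hg19 were not analysed here.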

Additional observations from a re-analysis of the deposited data

Results flagged for a closer look

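For 54 of the genes named, the change from 12 h to 48 h differed between the GSI and the DMSO labels in limma's test of the difference (adjusted p under 0.05). In 23 both labels were called in 1 direction and differed in size, in 22 only the GSI change was called, in 3 only the DMSO change, and in 6 the calls were opposite. The values below are the GSI change minus the DMSO change on the log2 scale. None of them is called without the replicate block.

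Genes that fell further, or fell only, under the GSI labels were the T-box factor TBX18 (−3.10), RGS6 (−2.58), IL18R1 (−2.16), TMEM158 (−2.00), DPP6 (−1.17), DMBT1 (−3.48), ID1 (−1.05), RUNX3 (−0.44), FOSL2 (−1.11), SPRY1 (−1.31), ITGAE (−0.46), CCND1 (−1.01), PMAIP1 (−0.43), IL7R (−0.46) and NFIL3 (−0.71). Glycolysis and hypoxia genes among them were LDHA (−0.42), PKM (−0.58), ALDOA (−0.42), TPI1 (−0.37), ADM (−2.92), BHLHE40 (−1.07) and EGLN1 (−0.42). The lactate exporter SLC16A3 (−0.64), BNIP3 (−1.66) and NDRG1 (−0.79) rose in DMSO and were not called under GSI. Stress genes were SLC7A5 (−0.37), CEBPB (−0.67), HSP90B1 (−0.41), HSPA5 (−0.55) and CALR (−0.35), and respiratory chain genes UQCRC1 (−0.27) and MT-CO2 (−0.25). Immune genes were GZMA (−3.59), GBP2 (−2.86), IFIT3 (−1.05), FASLG (−1.40) and NKG7 (−0.39). Long non-coding RNAs were CHRM3-AS2 (−1.81), LINC00963 (−1.44), MIR155HG (−0.55) and CYTOR (−0.55).

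Differences above 0 numbered 13. EGR2 (2.99), KRT1 (2.02), SOX5 (1.52), RASGRP1 (0.58), CCR9 (0.74), GATA3 (0.41) and BIK (0.59) rose more under GSI than in DMSO or rose only there. RAG1 (1.46), MCF2 (1.29), MXD4 (0.58) and NOTCH1 (0.36) rose under GSI without a call in DMSO. NOTCH3 (0.57) and WDR43 (0.30) fell less under GSI.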

How the results depend on the processing

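The replicate block decided the number of calls. With no block, limma called 768 genes between the GSI labels instead of 5544, 874 instead of 5622 between the DMSO labels, and 0 instead of 1177 differences. With the block shared by both treatments the counts were 1941, 2368 and 40. Leaving out 1 GSI pair gave 3497 to 5699 genes between the GSI labels and 752 to 1452 differences, and leaving out 1 DMSO pair gave 2972 to 4201 genes between the DMSO labels and 355 to 543 differences. Without the block, leaving out 1 GSI library gave 443 to 690 genes between the GSI labels and 0 to 2 differences. Without the filter on low values 681 differences were called. Upper-quartile scaling turned the share of higher calls between the GSI labels from 43.9% to 54.7% and between the DMSO labels from 47.8% to 57.3%. All other alternatives kept each of these counts within 1.5 times.

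Of the 149 named genes called, 83 stayed called without the block and 119 with the shared block. All stayed called under the other pseudocounts, scalings, edgeR and DESeq2, no filter, and without any DMSO pair. Without the GSI pair numbered 3 MXI1 was lost. Without 1 pair MCF2 ranged from 0.55 to 1.21 and SOCS3 from 0.75 to 1.37. Of genes not called, leaving out 1 pair or library turned the sign of HEYL (−0.46 to 0.48), SLC16A3 (−0.61 to 0.30), NDRG1 (−0.13 to 0.63) and BNIP3 (−0.98 to 0.34). The cause was not tested, beyond the smaller number of libraries. Depth limits genes near the filter value of 10, whose values rest on few reads.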

Other observations

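The gene families here were chosen after their values were seen. All 10 kept T-cell receptor alpha variable segments (TRAV) and all 31 joining segments (TRAJ) were higher at GSI 48 h than at GSI 12 h, with median log2 changes of 1.71 and 1.37. In DMSO 10 and 29 were higher, and no difference between the treatment labels was called. TRAV1-1, one of the most abundant, went from 14469, 11939 and 18496 to 37512, 35743 and 42222, and TRAV9-2 from 10784, 8673 and 8126 to 25166, 20059 and 18398. Beta variable segments (TRBV) did not share this, with 4 of 20 higher and 4 lower. Immunoglobulin heavy variable segments (IGHV) went the other way, with 28 of 37 lower (median −2.14) and 32 in DMSO. Reads of such segments may be split between near-identical copies.

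All 6 kept GIMAP genes, GTPases of lymphocytes, were lower (median −2.12), as in DMSO. Of 14 chemokine receptor genes 10 were higher and 2 lower, among them CXCR6 (1.02), CCR8 (−2.01) and CX3CR1 (−0.81). In DMSO 8 were higher and 2 lower, with a median of 0.90 against 0.91 under GSI and 1 called difference. Over all genes 12.6% were higher and 16.1% lower between the GSI labels. Numbered zinc finger genes (ZNF) were higher in 99 of 476 (20.8%) and lower in 26 (5.46%), against 54 and 61 in DMSO, with 24 differences called higher and 5 lower. The ZNF median change was 0.07, far smaller than in the segments.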
